A study of Mus musculus with 16 samples.

Results

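The genes described are 8 that are mutated in, or linked to, cystic kidney disease and the primary cilium: Pkd1, Pkd2, Pkhd1, Bicc1, Glis3, Invs, Ift88 and Tmem67. They were chosen by name, among 18193 genes with a probe set on the array. Every probe set whose annotation gave a single member symbol was taken, which found 11 probe sets for 7 of the 8 genes. No probe set carried the single symbol Pkd2 in the annotation used here, so Pkd2 was not analysed. Each gene is given through the probe set with the highest mean log2 signal over all arrays, and its other probe sets were checked against it.

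The primary cilium is a single antenna-like projection of the cell surface, built by intraflagellar transport along microtubules and gated at its base by the transition zone. Many proteins whose loss gives fluid-filled cysts in kidney tubules sit in this cilium, at its base or in the pathways that it serves. Cysts in the recessive form of polycystic kidney disease arise mainly in the collecting ducts, which descend from the ureteric bud, whereas the nephrons descend from the metanephric mesenchyme around it.

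The study measured transcripts of the mouse kidney at E11.5, when the bud has just entered the mesenchyme, on 16 Affymetrix arrays, 1 per sample, to find genes particular to bud or mesenchyme and genes that depend on the Hox11 proteins. Wild-type ureteric bud was represented by 4 samples, each made of 3 to 9 pooled buds. For metanephric mesenchyme of the same genotype (MM) there were 3 hand-dissected samples, each from a single mesenchyme. To part these tissues the rudiments had been softened in collagenase (0.5 mg/ml, 37 °C). A further 4 wild-type MM samples were cut with a laser from frozen kidney rudiments sectioned at 7 µm, pooling 3 to 4 mesenchymes each. The 5 HoxA11, D11 double null MM samples were cut with a laser too, at the same section thickness, from urogenital ridges. Genotype, the piece of tissue sectioned and perhaps the pooling therefore changed together between the captures and cannot be told apart, and the labels name no strain, litter or other allele. Nothing in the labels pairs the samples, and each p-value sets a difference against the spread between these samples. Some groups held pools and hand-dissected MM single mesenchymes, so this spread is not of the same kind in every group.

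The signal of a probe set is given in linear MAS5 units, scaled to the same trimmed mean on every array. Array medians lay between 112.7 and 209.2, and the number of arrays limits the precision. The medians were 162.8 to 182.3 in the wild-type captures and 112.7 to 128.9 in null replicates 2 to 5. Null replicate 1 had the highest, 209.2. Hoxa11 was lower in the null than in the wild-type captures, at 124 ± 44.5 (SD, n = 5) against 709 ± 147 (n = 4), a log2 difference of -2.23 ± 0.34 (SE; limma adjusted p = 0.0114). This call was lost without wild-type capture 1 (adjusted p = 0.0562), 2 (0.0597) or 3 (0.0683), and with the replicate number as a block (0.0821), and whether its probes lie in the deleted part was not tested. The summed signal of 9 nephron progenitor markers was 68874 to 86708 in hand-dissected MM and 1367 to 2200 in the bud, where 7 of the 8 tested were lower and 1, Cited1, was higher. Null replicate 1 stood apart, with a median correlation of 0.896 with the other null arrays, against 0.928 to 0.933 for the rest of that group. The summed signal of 9 bud markers was 1.07% to 1.43% of the bud mean in hand-dissected MM, 5.40% to 28.3% in the wild-type captures and 5.43% to 20.6% in the null captures.

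The promoter windows of 4 members are printed first, because Pkhd1 and Glis3 were higher in the bud and Invs and Ift88 had all bud arrays below hand-dissected MM. Each window runs from 250 bases before to 50 bases after the annotated start, is 300 bases long and is written in the sense of the gene. The start used for a window is not the outer end of the gene span given further below. In Glis3 that span ends at 28680265, inside the bases counted as before the start. Sequences are those of RefSeq on GRCm38.p6, at chr1:20618008-20618307 on the minus strand for Pkhd1, chr19:28680028-28680327 on the minus strand for Glis3, chr4:48279510-48279809 on the plus strand for Invs and chr14:57423821-57424120 on the plus strand for Ift88. Capitals mark GTTAATNATT, an element of the type bound by HNF1 factors, in Pkhd1 and the GC box GGGCGG in Glis3. In Invs and Ift88 they mark GTTNCC, a single arm of the X-box, the element type bound by RFX factors. Both strands were searched, and no capital runs overlap.
Pkhd1: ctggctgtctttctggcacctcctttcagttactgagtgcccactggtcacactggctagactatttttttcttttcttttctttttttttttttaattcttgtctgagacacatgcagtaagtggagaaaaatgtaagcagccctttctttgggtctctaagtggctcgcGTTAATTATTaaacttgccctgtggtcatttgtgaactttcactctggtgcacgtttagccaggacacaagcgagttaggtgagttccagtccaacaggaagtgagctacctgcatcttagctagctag
Glis3: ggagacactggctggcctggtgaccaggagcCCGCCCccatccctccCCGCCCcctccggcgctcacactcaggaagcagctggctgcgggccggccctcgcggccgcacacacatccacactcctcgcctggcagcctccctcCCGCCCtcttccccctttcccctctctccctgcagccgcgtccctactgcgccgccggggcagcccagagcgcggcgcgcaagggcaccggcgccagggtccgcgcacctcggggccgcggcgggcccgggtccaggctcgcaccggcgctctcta
Invs: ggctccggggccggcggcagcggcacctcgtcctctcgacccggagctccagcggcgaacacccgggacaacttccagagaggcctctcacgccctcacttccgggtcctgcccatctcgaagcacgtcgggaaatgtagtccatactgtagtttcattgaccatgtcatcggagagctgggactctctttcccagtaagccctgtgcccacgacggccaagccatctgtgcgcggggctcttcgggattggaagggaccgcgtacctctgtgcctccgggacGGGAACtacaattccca
Ift88: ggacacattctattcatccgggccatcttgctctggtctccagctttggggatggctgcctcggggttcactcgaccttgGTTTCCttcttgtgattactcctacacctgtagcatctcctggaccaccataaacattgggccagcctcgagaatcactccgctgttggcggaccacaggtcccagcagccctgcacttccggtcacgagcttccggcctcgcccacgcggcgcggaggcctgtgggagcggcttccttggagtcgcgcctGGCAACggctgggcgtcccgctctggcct
The windows differed in base composition. Pkhd1 had 43.3% G and C and 4 CpG dinucleotides, below the medians of 52.7% and 7 over all 32851 promoter windows. Glis3 had 76.3% and 32 CpG, Invs 63.0% and 25, and Ift88 62.3% and 20. The Pkhd1 window held GTTAATTATT on the strand of the gene, 79 bases before the start. The searched element GTTAATNATT was found in 0.399% of all windows, and in no other of the 6 members that have a window. Glis3 held 3 GC boxes, read as CCGCCC on the gene strand, at 219, 203 and 106 bases before the start, and a GC box was found in 35.7% of all windows. Matches to the X-box arm lay 33 bases after the start of Invs, and 170 bases before and 21 bases after that of Ift88. At least 1 was held by 45.3% of all windows, and a whole X-box was not searched for. A match is a description of letters, not of a bound site. Bicc1 and Tmem67 had no window among those used, so neither was searched for these elements. The window of Pkd1 held 5 GC boxes and that of Pkd2 held none of these elements, and both windows lay wholly inside the spans of their genes.

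In the annotation of GRCm38.p6, Pkhd1 spans 560 kb (chr1:20057779-20618082) and Glis3 421 kb (chr19:28258851-28680265). Bicc1 spans 237 kb (chr10:70922830-71159690) and Invs 152 kb (chr4:48279707-48431956). Ift88 spans 93.9 kb (chr14:57424064-57517936), Pkd2 51.8 kb (chr5:104453982-104505819), Tmem67 50.7 kb (chr4:12039355-12090020) and Pkd1 47.8 kb (chr17:24548689-24596514). Where the probes lie within these genes was not analysed here.

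The first comparison asked which members differ between bud and mesenchyme, both dissected by hand. Pkhd1, Glis3 and Bicc1 were higher in the bud and Invs was lower there. Pkd1 and Ift88 did not pass the test, and Tmem67 did not rise above the array median on any array. Thus 3 members were called higher and 1 lower, where 28.5% of the 12435 genes tested were called, 13.9% higher and 14.6% lower in the bud (limma, adjusted p under 0.05). Pkhd1, among the 3, passed the filter through its bud arrays only. The bud and MM arrays of 5 members did not overlap, as was the case for 36.4% of genes tested. Since whole tissues were measured, fewer cells of a type and less RNA per cell cannot be told apart here.

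**Figure D1:**
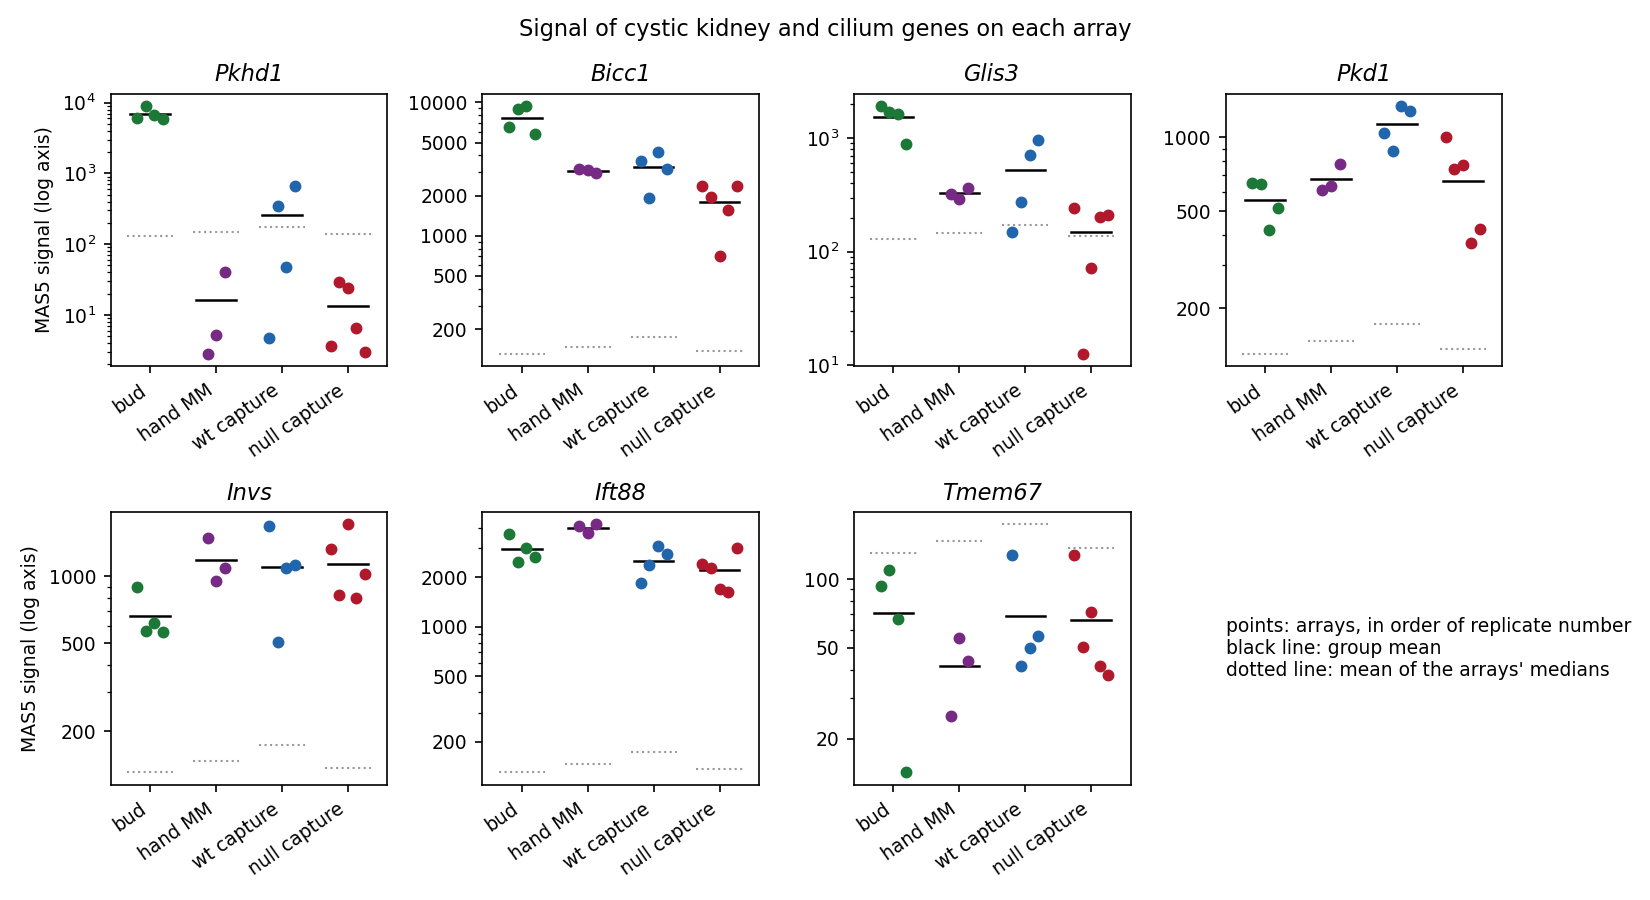
MAS5 signal (log axis) of the 7 members with a probe set on each of the 16 arrays, in bud (green), hand-dissected mesenchyme (hand MM, purple), wild-type capture (blue) and null capture (red); black lines are group means and dotted lines the mean of the array medians. Pkhd1 lay between 5944 and 9011 in the bud and below the array median on every hand-dissected MM and null array, and Tmem67 lay below the array median on all 16 arrays.

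Pkhd1, which encodes fibrocystin, the membrane protein lost in recessive polycystic kidney disease, had signals of 6018, 9011, 6748 and 5944 on the 4 bud arrays. In hand-dissected MM its signals were 2.8, 5.2 and 40.7. The bud arrays were all high and the mesenchyme arrays were all below their array medians, and the groups did not overlap. With the highest array median of the MM group, 150.9, as a floor, the bud mean was at least 45.9-fold higher. The difference was 7.10 ± 0.28 on the scale of log2(signal + 36.3), with a 95% confidence interval of 6.48 to 7.72 (limma adjusted p = 1.64e-08). Pkhd1 entered this test only through its bud arrays.

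Glis3, a Krüppel-like zinc finger transcription factor whose loss gives cystic kidneys and neonatal diabetes, had signals of 1920, 1683, 1641 and 884 in the bud. Its signals in hand-dissected MM were 323, 293 and 365, so the groups did not overlap and MM was still above the array median on each array. The bud mean was 4.68-fold that of MM, a log2 difference of 2.06 ± 0.28 (interval 1.46 to 2.66; limma adjusted p = 0.000185).

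Bicc1, an RNA-binding protein with KH domains whose mutation gives cystic kidneys in mice, had bud signals of 6504, 8887, 9405 and 5767. Hand-dissected MM gave 3154, 3108 and 2951, all lower than every bud array and close together. The bud mean was 2.49-fold higher, a log2 difference of 1.28 ± 0.22 (limma adjusted p = 0.00104). A second probe set of Bicc1 gave 1.44 ± 0.32 (adjusted p = 0.00611), and the third was too dim to test.

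Invs encodes inversin, which anchors the inversin compartment of the proximal cilium and is mutated in infantile nephronophthisis. Its bud signals were 894, 564, 617 and 563, and its MM signals 1497, 949 and 1094. Every bud array was below every MM array, with a narrow gap between bud replicate 1 and MM replicate 6. The log2 difference was -0.81 ± 0.25 (limma adjusted p = 0.0361). This call was lost without bud replicate 2 (adjusted p = 0.0895), 3 (0.0927) or 4 (0.0908), without MM replicate 5 (0.131) or 7 (0.0845), and with each array centred on its median (0.0682). The other Invs probe sets were below the array median on all arrays.

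Ift88 encodes a core subunit of the intraflagellar transport B complex and is disrupted in the Oak Ridge polycystic kidney mouse. It gave 3673, 2476, 3011 and 2668 in the bud and 4086, 3710 and 4187 in MM. The groups did not overlap, but the log2 difference of -0.44 ± 0.21 (interval -0.89 to 0.01) did not pass (limma adjusted p = 0.145). Without bud replicate 1 it did, at -0.55 (adjusted p = 0.0463). Pkd1 encodes polycystin 1, the large receptor-like protein mutated in most dominant polycystic kidney disease. Its signals of 649, 645, 419 and 513 in the bud overlapped those of 612, 632 and 782 in MM, and the log2 difference was -0.28 ± 0.23 (interval -0.79 to 0.24; adjusted p = 0.430). Tmem67, which encodes the transition zone protein meckelin, had mean signals of 70.9 ± 41.7 in the bud and 41.4 ± 15.2 in MM. They were 68.6 ± 39.3 in the wild-type and 65.8 ± 36.7 in the null captures. All its signals were below the array medians, so Tmem67 entered no main test. With no filter its bud difference was 0.38 ± 0.38 (limma adjusted p = 0.608).

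The ratio of 3′ to 5′ signal of the Gapdh control, a measure of how much of the transcript was copied, was 6.53 to 12.2 in the bud and 22.1 to 69.3 in hand-dissected MM. That of Actb overlapped, at 10.9 to 16.3 against 11.1 to 17.9. The part of this difference in the results above was not tested. Of 5 early response genes that mark handling, 2 were lower in the bud than in MM.

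**Figure D2:**
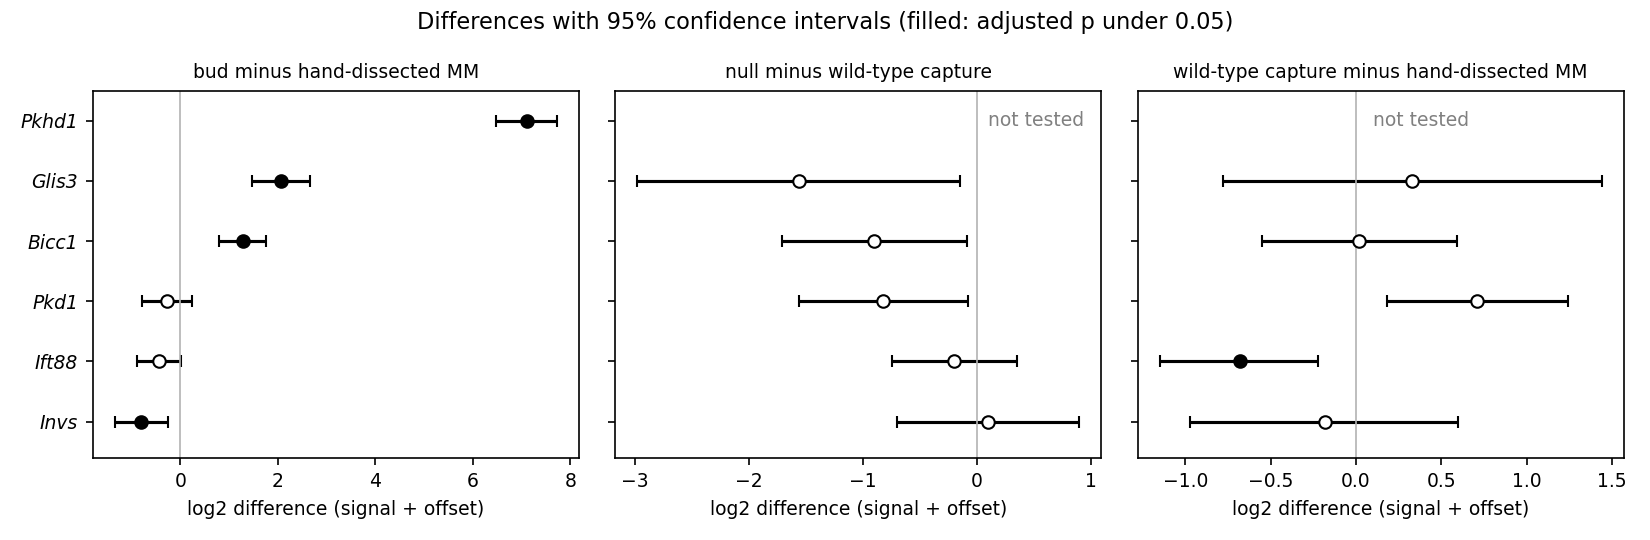
Log2 differences of signal + 36.3 for the 6 members that could be tested, with 95% confidence intervals, in bud minus hand-dissected mesenchyme, null minus wild-type capture and wild-type capture minus hand-dissected mesenchyme; filled points had a limma adjusted p under 0.05. Pkhd1, Glis3, Bicc1 and Invs are filled in the first comparison, none in the second, and Ift88 in the third.

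The wider set held 136 other genes of cystic disease and cilium lists, of which 124 had a probe set and 107 could be tested between bud and MM. Of these, 13 were higher and 4 lower in the bud, or 15.9%, where 28.5% of all genes tested were called. The median absolute log2 difference was 0.37 in the lists and 0.43 over all genes. Leaving out 1 array changed the count of 17: it was 26 without bud replicate 1, 7, 6 and 11 without bud replicates 2, 3 and 4, and 9 and 5 without MM replicates 5 and 7.

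Of 69 genes tested for the parts that build the cilium, 7 were higher and 3 lower in the bud. That is 14.5%, where 28.5% of all genes tested were called. None of the 6 genes of the IFT-A complex, of 10 ciliary motor genes or of 12 genes of the BBSome, the coat that carries membrane proteins, passed (limma), and 2, 3 and 1 of them had an unadjusted p under 0.05, as 41.2% of all genes tested did. Of 17 IFT-B genes tested, Ift88 included, 2 were higher and 1 lower in the bud, or 17.6%, against the same 28.5%. Ift57 rose by 0.87 ± 0.20 (adjusted p = 0.00822), and Traf3ip1, which encodes the IFT54 subunit, by 0.70 ± 0.23 (0.0417). Ttc30b, which encodes the IFT70 subunit, was lower at -0.90 ± 0.28 (0.0367).

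Of 15 transition zone genes, 3 were higher and 1 lower in the bud, or 26.7%, where 28.5% of all genes tested were called. B9d1 (0.92 ± 0.26, adjusted p = 0.0246) and Tctn2 (0.80 ± 0.23, 0.0235) were higher, and Cc2d2a was lower (-0.70 ± 0.21, 0.0298). All of these encode proteins of the complex at the base of the cilium that is mutated in Meckel and Joubert syndromes. Among 10 basal body genes 30.0% were called, near the 28.5% of all genes tested. Of these, Cby1 (1.09 ± 0.35, 0.0405) and Ofd1 (0.70 ± 0.23, 0.0482) were higher. Ttbk2, a kinase that starts cilium assembly, was lower at -1.03 ± 0.28 (0.0211), while its dimmer second probe set gave -0.14 ± 0.29 (0.775). Of 9 ciliary membrane signalling genes tested 11.1% were called, against 28.5% of all genes tested. Smo, the hedgehog signal transducer, passed at 0.67 ± 0.20 (0.0321), and its second probe set gave 0.97 ± 0.25 (0.0150).

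Dcdc2a, a doublecortin-domain gene of the nephronophthisis list, had the largest difference of the wider set. Its signals were 14269, 15326, 15922 and 10416 in the bud and 371, 509 and 415 in MM. The bud arrays stood far above MM, with means of 13983 ± 2474 and 432 ± 70.4, a 32.4-fold difference and 4.90 ± 0.22 on the log2 scale (limma adjusted p = 3.99e-08). The wild-type captures gave 786, 894, 329 and 1434 and the null captures 95.7, 886, 2.1, 873 and 931, all far below the bud. A second, dim probe set of the gene, with a bud mean of 157 ± 31.8, did not pass (0.27 ± 0.28, adjusted p = 0.515). Of 11 other cystic disease genes tested, 3 were higher and none lower in the bud, or 27.3%, where 28.5% of all genes tested were called. Dzip1l, a transition zone gene of recessive polycystic disease, was higher by 1.38 ± 0.21 (0.000596), and Prkcsh, the glucosidase subunit of polycystic liver disease, by 1.28 ± 0.22 (0.00134).

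Dnah11, an axonemal dynein heavy chain of motile and nodal cilia, had signals of 343, 659, 754 and 880 in the bud and 68.6, 64.8 and 27.9 in hand-dissected MM (2.91 ± 0.34, limma adjusted p = 5.83e-05). It was above the array median on 0 of the 3 MM arrays and entered this test through its bud arrays only, and against the floor of 150.9 the bud mean was at least 4.37-fold higher. Rfx5, listed with the RFX factors though best known for MHC class II genes, was lower in the bud at -1.39 ± 0.28 (0.00349). Its bud signals were 14249, 5546, 6981 and 6505 against 23549, 18140 and 19538 in MM. In the wild-type captures Dnah11 was at 702, 638, 312 and 731 and Rfx5 at 5111, 5517, 6921 and 6087, in or just below the range of the bud arrays.

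Set against all 7 wild-type MM arrays, captures included, 11 of the 15 list genes named for this comparison missed the threshold (limma adjusted p 0.0585 to 0.926). The bud difference of Dnah11 was then 1.32 (adjusted p = 0.215) and that of Rfx5 -0.37 (0.652). Ttc30b (-0.087, 0.926) and Cc2d2a (-0.081, 0.898) were near 0. Smo was at 0.27 (0.455), Cby1 at 0.42 (0.507) and Ofd1 at 0.24 (0.615). Ift57 was at 0.50 (0.146), B9d1 at 0.50 (0.220), Prkcsh at 0.72 (0.0892) and Ttbk2 at -0.74 (0.0585). Dcdc2a, Dzip1l, Tctn2 and Traf3ip1 still passed.

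Of the same 15 list genes, Dcdc2a, Dnah11, Dzip1l, Prkcsh and Rfx5 kept an adjusted p under 0.05 without each array in turn, and the other 10 did not. Leaving out MM replicate 7 ended 10 calls (adjusted p 0.0557 to 0.128), MM replicate 5 ended 8 (0.0728 to 0.151) and MM replicate 6 ended 3 (0.0605 to 0.0943). Leaving out bud replicate 3 ended 9 calls (0.0505 to 0.135), bud replicate 2 ended 8 (0.0590 to 0.119), bud replicate 4 ended 7 (0.0515 to 0.110) and bud replicate 1 ended 1 (0.0543).

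**Figure D3:**
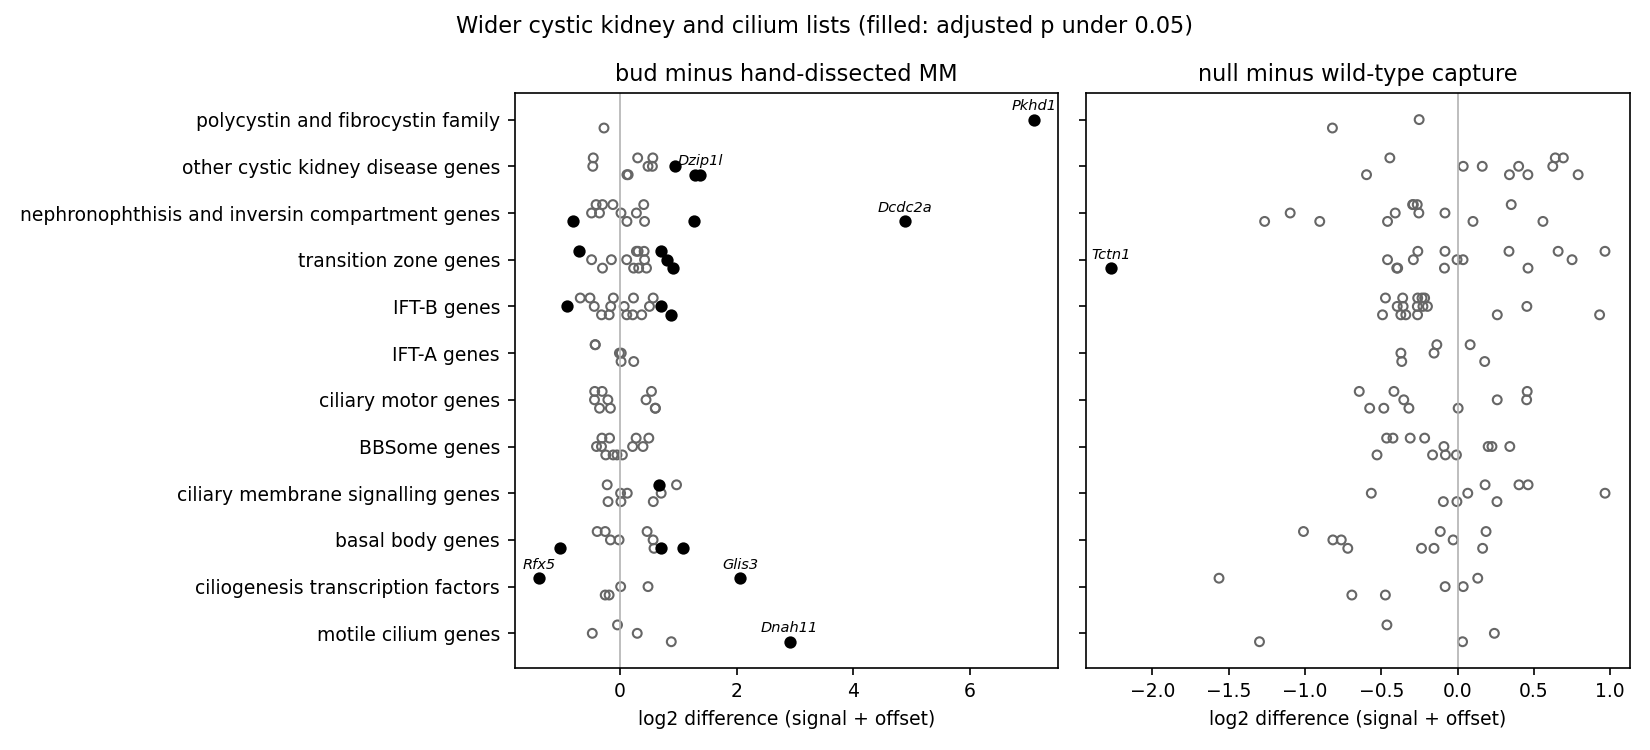
Log2 differences of signal + 36.3 for every tested gene of the 12 cystic kidney and cilium lists, members included, in bud minus hand-dissected mesenchyme and null minus wild-type capture; filled points had a limma adjusted p under 0.05 and the named points are the largest. Pkhd1 at 7.10 and Dcdc2a at 4.90 stand far from the rest in the first comparison, and Tctn1 at -2.27 is filled in the second.

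The second comparison set the null against the wild-type captures. No call was made for any of the 5 members that entered the test, where 1.74% of the 12161 genes tested were called (limma). Bicc1, Glis3 and Pkd1 had an unadjusted p under 0.05, each with a lower mean in the null, where 19.1% of genes tested reached that level and 11.4% did so with a lower mean. No member's null and wild-type arrays were fully apart, as 9.03% of genes tested were. No member passed in any alternative setting that was run.

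Pkd1 gave 1005, 740, 770, 370 and 421 in the null and 1040, 883, 1346 and 1277 in the wild-type captures. Most null arrays were lower, and null replicate 1 reached above wild-type replicate 2. The log2 difference was -0.82 ± 0.34 (interval -1.56 to -0.08; limma adjusted p = 0.220). Bicc1 gave 2353, 1969, 706, 1568 and 2367 in the null and 3667, 1906, 4283 and 3162 in the wild type. Of the null arrays 3 exceeded wild-type replicate 2, which was the lowest of its group, and the difference was -0.90 ± 0.37 (interval -1.71 to -0.09; adjusted p = 0.219). The second probe set of Bicc1 gave -0.69 ± 0.38 (adjusted p = 0.350).

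Glis3 gave 243, 12.6, 72.2, 200 and 210 in the null and 150, 273, 706 and 966 in the wild type. The wild-type arrays were themselves far apart, and replicate 1 fell within the null range. The difference was -1.56 ± 0.65 (interval -2.98 to -0.15; limma adjusted p = 0.223). Without wild-type replicate 4, the highest, it was -1.18 (adjusted p = 0.483).

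Ift88 gave 2410, 2280, 1686, 1634 and 3015 in the null and 1842, 2364, 3078 and 2767 in the wild type, which overlapped (-0.20 ± 0.25, interval -0.74 to 0.35, limma adjusted p = 0.712). Invs gave 1332, 824, 1717, 802 and 1021 against 1693, 506, 1087 and 1127, also overlapping (0.10 ± 0.37, interval -0.70 to 0.90, adjusted p = 0.908). Without null replicate 1, which stood apart, the differences were -0.99 for Pkd1 (adjusted p = 0.0832), -1.03 for Bicc1 (0.120), -1.78 for Glis3 (0.123), -0.24 for Ift88 (0.601) and 0.03 for Invs (0.971).

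The median log2 difference of all genes was -0.10 in this comparison, and it was 0.20 with each array centred on its median. On that scale Pkd1 was at -0.52, Bicc1 at -0.60, Glis3 at -1.26, Invs at 0.40 and Ift88, with its sign turned, at 0.10. The 3′ to 5′ ratio of Actb was 14.8 to 20.9 in the wild-type and 17.5 to 27.6 in the null captures, and that of Gapdh 14.3 to 22.9 and 18.4 to 26.3. Of 4 macrophage markers 1 was lower in the null, and of 4 neuronal markers 1 was higher, with summed neuronal signals of 2333 to 27214 against 1999 to 4637. The part of these in the differences above was not tested.

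Pkhd1 was above the array median on 2 wild-type captures only, so it did not enter the main test between the captures. With no filter its log2 difference was -1.84 ± 0.69 (interval -3.32 to -0.36; limma adjusted p = 0.259). The Pkhd1 signals were 4.7, 341, 47.8 and 655 in the wild type and 3.6, 29.0, 24.1, 6.6 and 3.0 in the null. Wild-type replicates 2 and 4, the arrays with Pkhd1 at 4.92% and 9.45% of its bud mean, were also those with the highest bud marker sums of their group, 28.3% and 20.3%. Null replicate 5 had a bud marker sum of 20.6% and Pkhd1 at 0.0433%. The sum adds linear signals, so bright markers such as Calb1 weigh most, and single markers ordered the captures differently. In null replicate 5 Calb1 was 6880, Ret 1484 and Cdh1 638, and in null replicate 1 they were 79.4, 2840 and 1293. Wild-type replicate 2 had Calb1 at 27963 and Ret at 3577, and replicate 4 had 14170 and 7325. None of the 9 bud markers passed between null and wild type, and the part of bud tissue in the Pkhd1 signals was not tested.

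**Figure D4:**
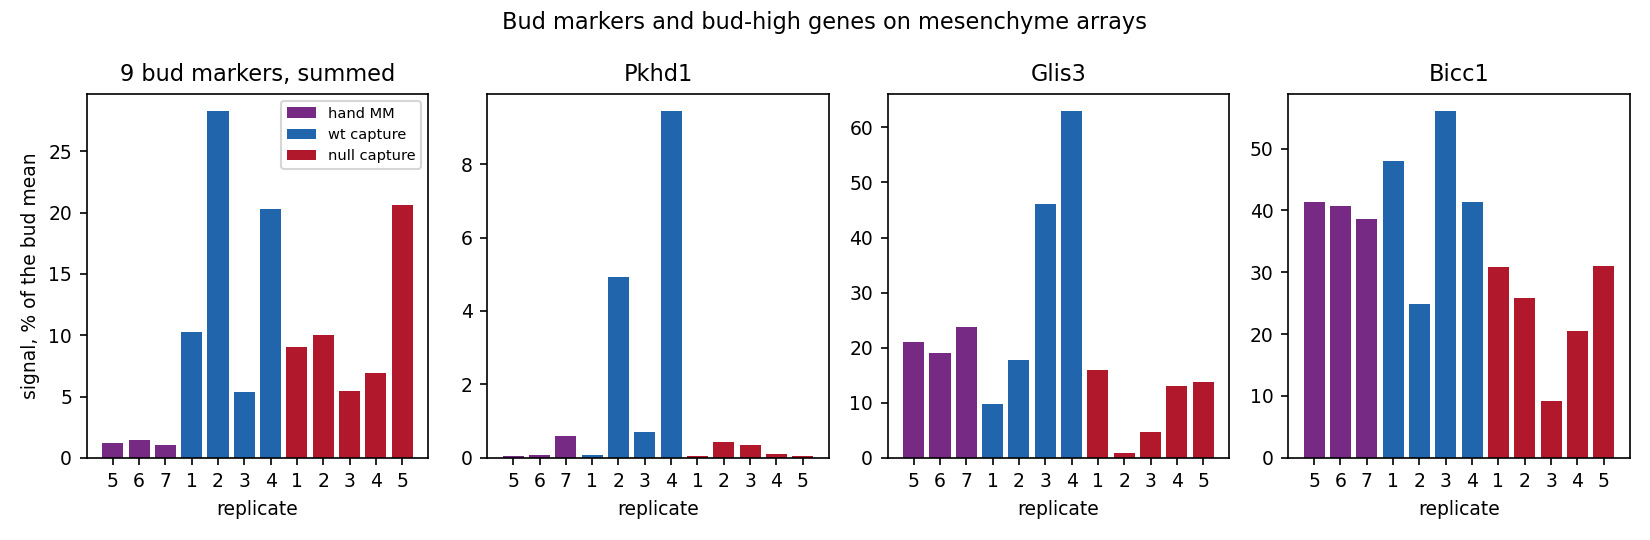
Signal on each mesenchyme array as a percentage of the bud mean, for the sum of 9 bud markers and for Pkhd1, Glis3 and Bicc1; bars are single arrays by replicate number, in hand-dissected mesenchyme (hand MM), wild-type and null capture. Bud markers were at most 1.43% in hand-dissected mesenchyme and up to 28.3% in the captures, while Bicc1 lay between 9.23% and 56.1% on all 12 arrays.

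Hand-dissected MM, with the lowest bud marker sums, had Bicc1 at 38.6% to 41.3% and Glis3 at 19.1% to 23.8% of the bud mean. Wild-type replicate 3, with the lowest marker sum of its group at 5.40%, had the highest Bicc1 of that group at 56.1% and Glis3 at 46.1%. Wild-type replicate 2, with the highest marker sum, had Bicc1 at 24.9% and Glis3 at 17.8%. Wild-type replicates 1 and 4, with sums of 10.3% and 20.3%, had Bicc1 at 48.0% and 41.4% and Glis3 at 9.80% and 63.0%. Among the null captures replicate 3 had the lowest marker sum (5.43%) and the lowest Bicc1 (9.23%), and replicate 5 the highest of both (20.6% and 31.0%). Their Glis3 lay between 0.822% and 15.9% of the bud mean. These Bicc1 values are those of its brightest probe set, and the second ordered the arrays differently. It gave 1676, 1965, 2023 and 2298 in wild-type replicates 1 to 4. In null replicates 1 to 5 it gave 2174, 751, 568, 1680 and 1629. Single bud markers also ordered the captures differently from their sum, as given above. The part of bud tissue in the Bicc1 and Glis3 signals was not tested.

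In the wider lists 107 genes were tested between the captures, of which 1 was lower in the null, or 0.935%, and none higher, where 0.995% of all genes tested were called lower and 0.748% higher (limma). An unadjusted p under 0.05 was reached by 21 of the 107, and by 19.1% of all genes tested. The lists differed in this, from none of 6 IFT-A, 10 motor and 12 BBSome genes to 7 of 11 other cystic disease genes. None of those 11 was called, and their log2 differences ran from -0.60 to 0.79. Their median was 0.40, against -0.10 over all genes tested. The 1 gene called was Tctn1, a tectonic protein of the transition zone. It gave 228, 176, 374, 212 and 563 in the null and 2583, 1670, 1443 and 846 in the wild type, and the groups did not overlap. The means were 311 ± 160 and 1636 ± 721, a log2 difference of -2.27 ± 0.41 (adjusted p = 0.0265). Hand-dissected MM gave 714, 1747 and 881, the first of them below the wild-type captures and the others within their range.

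The Tctn1 call was lost without null replicate 2 (adjusted p = 0.0532), without wild-type replicate 1 (0.0840), 2 (0.102) or 3 (0.0925), and with arrays centred on their medians (0.0577). It held without null replicate 1 (0.0148), where the count of list genes called was 6. Between bud and MM Tctn1 had a log2 difference of 0.45 ± 0.37 (interval -0.36 to 1.27; adjusted p = 0.415). Smo had overlapping null and wild-type arrays and did not pass (0.40 ± 0.16, adjusted p = 0.212), while its second probe set was higher in the null, at 12465 ± 496 against 7917 ± 1050 (0.66 ± 0.14, adjusted p = 0.0399).

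**Figure D5:**
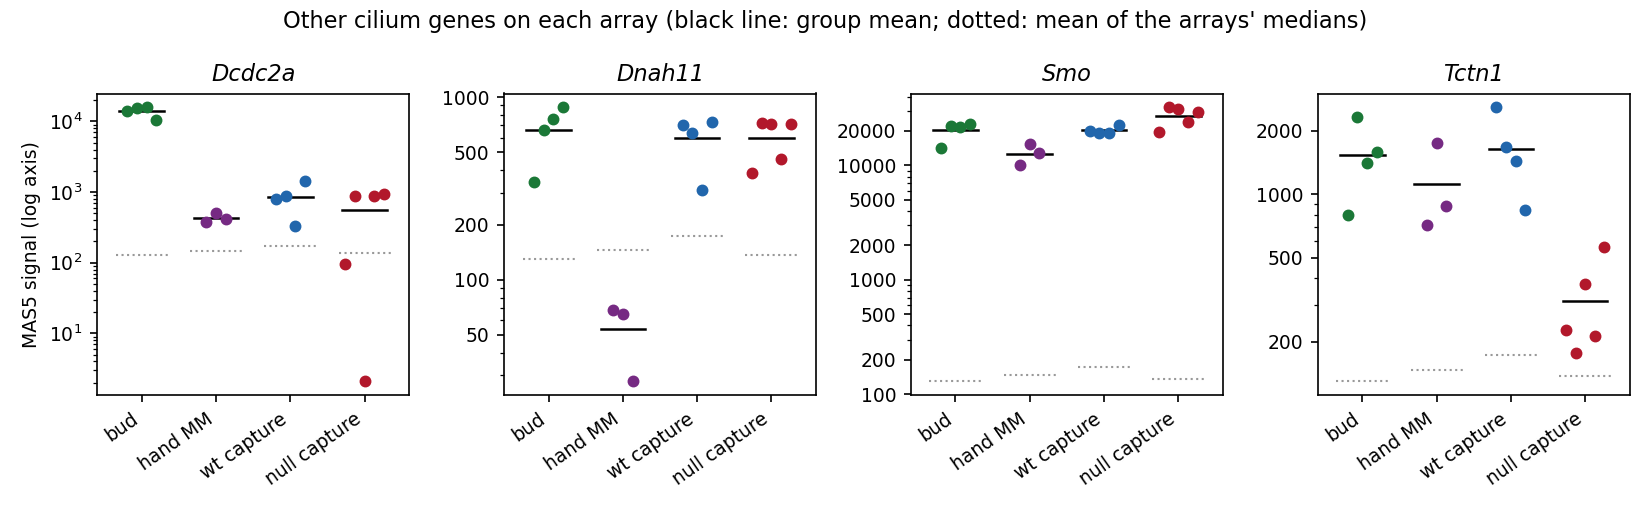
MAS5 signal (log axis) of Dcdc2a, Dnah11, Smo and Tctn1 on each of the 16 arrays, coloured by group as bud, hand-dissected mesenchyme (hand MM), wild-type capture and null capture; black lines are group means and dotted lines the mean of the array medians. Dnah11 is low in hand-dissected mesenchyme only, and Tctn1 lies between 176 and 563 in the null and between 846 and 2583 in the wild-type captures.

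The third comparison, of laser-captured with hand-dissected wild-type MM, sets the 2 ways of isolation side by side, between which the pooling of mesenchymes differed too. It shares the hand-dissected arrays with the first comparison and the captures with the second, so the values are given side by side only. Of the 5 members that passed the filter Ift88 was lower in the captures and none was higher, where 23.5% of the 12172 genes tested were called, 13.6% higher and 9.88% lower (limma). The arrays of 2 members, Ift88 and Pkd1, did not overlap, as in 34.1% of genes tested.

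Ift88 had means of 2513 ± 534 in the captures and 3994 ± 251 in hand-dissected MM, and every capture was lower (-0.68 ± 0.21, limma adjusted p = 0.0367). The call was lost without wild-type capture 1 (adjusted p = 0.0792), 2 (0.0794) or 4 (0.0540) and without MM replicate 5 (0.0782), 6 (0.0645) or 7 (0.123). Pkd1 was on the other side, at 1136 ± 214 against 675 ± 93.0, with every capture above every hand-dissected array. The difference of 0.71 ± 0.24 (interval 0.18 to 1.24) just missed the threshold (adjusted p = 0.0527), and passed without wild-type capture 2 (0.82, adjusted p = 0.0474).

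Bicc1 gave different answers by probe set. The brighter one did not pass (0.02 ± 0.26, limma adjusted p = 0.959), while the second was higher in the captures, at 1991 ± 255 against 963 ± 47.0 (1.01 ± 0.21, adjusted p = 0.00615). Glis3 (0.33 ± 0.51, 0.671) and Invs (-0.18 ± 0.36, 0.740) had wide intervals, -0.78 to 1.44 and -0.97 to 0.60. Of the wider lists 14 genes were higher and 8 lower in the captures among 106 tested, or 20.8%, where 23.5% of all genes tested were called. With median-centred arrays 6 list genes were higher and 13 lower. The 4 with the largest fitted differences were Dnah11 (2.78 ± 0.37, 0.000917), which entered through the captures only and was at least 3.95-fold higher there against the same floor, Rfx5 (-1.78 ± 0.16, 0.000157), Ttc30b (-1.43 ± 0.34, 0.0116) and Rsph1, a radial spoke head gene of motile cilia (1.38 ± 0.46, 0.0478). Rsph1 was dim, above the array median on 3 of 4 wild-type captures and on 1 of 3 hand-dissected MM arrays. It passed in 4 of 18 alternatives, and Ttc30b missed without MM replicate 5 (0.0518).

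Alongside these, 8 of 9 bud markers were higher in the captures than in hand-dissected MM, and 4 of 5 early response genes were lower, with summed signals of 5372 to 8516 against 78373 to 126276. All 4 erythroid markers and 2 of 4 macrophage markers were higher in the captures, where 13.6% of all genes tested were higher and 9.88% lower. The part of these in the differences between methods was not tested.

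Set in order of their means, the groups ran differently for each member. Pkhd1 and Bicc1 were highest in the bud, whose arrays lay apart from those of the next group, the wild-type captures. Glis3 had the same first and second group, but bud replicate 4 at 884 lay below capture 4 at 966. In Glis3 and the brightest probe set of Bicc1 the null captures came last, and their arrays lay below all hand-dissected MM arrays, the next group up. On the second Bicc1 probe set hand-dissected MM came last, at 963 ± 47.0 against 1360 ± 677 in the null captures. The bud arrays of that probe set, the lowest at 1464, overlapped the wild-type captures, at 1676 to 2298. Pkd1 was highest in the wild-type captures, apart from hand-dissected MM, and the other 3 groups overlapped with their neighbours. Ift88 was highest in hand-dissected MM, apart from the bud, which overlapped with the wild-type captures, as these did with the null. All neighbours overlapped for Invs, which was lowest in the bud, and for Tmem67.

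Across the 16 arrays the log2 signals of Bicc1 and Glis3 had a Pearson r of 0.823, those of Pkhd1 and Glis3 0.797 and those of Pkhd1 and Bicc1 0.733. That of Pkhd1 and Invs was -0.672, and Pkd1 had no r above 0.403 with any member. The points fall into the 4 groups, and r within groups was not computed. The genes most like each member by the same measure were Rnf43 (0.984), Cd9 (0.969) and Rasl10a (0.968) for Pkhd1, and Parp9 (0.951), Ppp2r3a (0.947) and Gchfr (0.947) for Glis3. For Bicc1 they were Inava (0.911), Zdhhc23 (0.903) and Ccdc120 (0.898), and for Ift88 Nfatc2ip (0.912), Fbxo45 (0.890) and Wdr1 (0.890). For Pkd1 they were Jmjd1c (0.877), Prokr2 (0.875) and Taf1a (0.852), and for Invs Nrgn (0.862), Gm9958 (0.826) and Slc25a14 (0.794). No gene was among the 3 most like more than 1 member.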

How the data were processed

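RNA from each sample was amplified in 2 rounds and hybridized to a mouse array with 45101 probe sets, per the labels' protocols. The deposited values are linear signal intensities made with MAS5, per the submitters' processing notes; its version is not stated in the sources used. These deposited intensities share a trimmed mean of 1500, with 2% removed at each tail, as read from the values, which assumes equal total expression. After removal of 64 controls, 34945 of 45037 probe sets had 1 symbol. Signals were taken as log2(signal + 36.3), the offset being the 25th percentile, so differences of dim genes are understated. A probe set entered a comparison if it exceeded the array median on n or more arrays, n being the size of the smaller group. Tests used limma 3.58.1 (R 4.3.3; eBayes with intensity trend), fitted on the arrays of both groups only, with Benjamini-Hochberg adjustment over all kept probe sets and a threshold of 0.05. The fit was tested on simulated data. Named list genes were, per comparison and list, up to 2 higher and 2 lower with the largest differences past the threshold, and for the method comparison the 4 largest of these. Genes most like a member were the 3 with the highest r. The members, lists, tests and alternatives were chosen with earlier results of these data known. Figures were drawn with matplotlib 3.10.9.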

Additional observations from a re-analysis of the deposited data

How the results depend on the processing

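In the bud comparison Pkhd1 (5.60 to 7.92), Bicc1 (1.08 to 1.48) and Glis3 (1.82 to 2.30) passed in 20 of 20 alternatives, Invs in 9 of 18, Ift88 in 2 of 20 and Pkd1 in 1 of 19. Between the captures no member passed in any. Ift88 passed in 10 of 19 alternatives in the method comparison and Pkd1 in 3 of 18. Genes called in the bud comparison were 3547, against 2210 with a filter at the 75th percentile and 5959 with array weights, and 2517 to 4738 with 1 array left out. Members called were 3 to 5 and list genes 5 to 26 with 1 array left out. List genes called were 43 with array weights, 10 with all 4 groups in 1 fit and 10 against all wild-type MM. Between the captures 212 genes were called, against 97 with median centring, 120 with no filter, 95 with no intensity trend, 798 with array weights, 893 with all 4 groups in 1 fit and 91 with the mean of all probe sets. With 1 array left out they were 29 to 814, the highest without null replicate 1, and list genes were 0 to 6, members 0. List genes were 0 with median centring, 0 with the filter at the 75th percentile, 7 with array weights and 5 with all 4 groups in 1 fit. Same-numbered null and wild-type captures correlated at -0.00519, 0.0339, -0.0467 and 0.0743 in their deviations from the group means. Pairs with different numbers lay between -0.167 and 0.23. The labels do not say what the numbers share, and these correlations cannot show whether same-numbered samples had a litter or batch in common. With the replicate number as a block 29 genes and 0 list genes were called. In the method comparison 2861 genes were called, against 1419 with all 4 groups in 1 fit and 1764 with the mean of all probe sets, and 1529 to 2912 with 1 array left out. Members called were 0 with no filter, 0 with all 4 groups in 1 fit, 2 with the mean of all probe sets and 0 to 1 with 1 array left out, and list genes were 13 with all 4 groups in 1 fit and 10 to 21 with 1 array left out. The cause was not tested.

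Calls split 1727 higher and 1820 lower in the bud, and 2338 and 1480 with median centring, where the median of all genes was 0.14. Between the captures the split was 91 and 121, and 100 and 80 with cyclic loess, 99 and 105 with quantile normalization and 82 and 15 with median centring. In the method comparison it was 1659 and 1202, and 1275 and 1378 with quantile normalization, 1377 and 1428 with cyclic loess and 890 and 1922 with median centring. Differences near 0 that did not pass changed sign. Between the captures these were Ift88 with median centring (0.10) and Invs, at -0.22 to 0.34 with 1 array left out. In the method comparison they were Bicc1 with quantile normalization (-0.025), cyclic loess (-0.014) or median centring (-0.17) and Glis3 with quantile normalization (-0.014). With 1 array left out Bicc1 was at -0.13 to 0.26, Glis3 at -0.051 to 0.76 and Invs at -0.42 to 0.13. Signals below the array median, as for Tmem67, have no reliable order. The list of most similar genes kept 15 of 18 with the larger offset.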
